A study of Mus musculus with 30 samples.

Results

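Baicalin was set against valsartan in mice that all received angiotensin II. The members are the 5 libraries with the group label AngII+BAI and the 5 with the label AngII+VAL, 10 of the 30 libraries of the series. They were chosen by these labels alone. The series holds RNA-seq libraries from abdominal aortas of C57BL/6 mice (wild type, WT) in 6 groups, and its title names compounds that lower blood pressure raised by angiotensin II. All 10 libraries compared came after 28 days of angiotensin II at 500 ng/kg/min. AngII+BAI also received baicalin at 5 mg/kg/day and AngII+VAL also received valsartan at 10.4 mg/kg/day, so the doses differed. AngII, with the same angiotensin II and no compound, and Control, with saline, are given as background (5 libraries each, measured the same way). The labels used here give no age, sex or route of the compounds and no blood pressure. Each library has its own number in the labels, which do not state that it is 1 animal, so the p-values measure the spread between these libraries. Libraries are called AngII+BAI 1 to 5 and AngII+VAL 1 to 5 in the order of deposit, and the numbers pair nothing.

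Angiotensin II constricts arteries through the AT1 receptor, a Gq-coupled receptor on smooth muscle that raises cell calcium. In the vessel wall it also acts on oxidase, matrix and inflammatory genes. Valsartan blocks the AT1 receptor. Baicalin is a flavonoid glucuronide from Scutellaria roots. The compounds are not structural analogs of each other.

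Values are FPKM (fragments scaled to transcript length and library size), summed per gene over the 28582 annotated transcripts that the authors listed for both groups. Of 14618 genes, 11962 reached 1 FPKM in 5 or more of the 10 libraries and were tested. Differences are log2(FPKM + 1) in AngII+BAI minus AngII+VAL, with their standard error (SE), from limma, and understate the change of low genes. A gene was called at an adjusted p under 0.05. The sums hold coding and noncoding transcripts of a gene alike, such as retained introns and targets of nonsense-mediated decay. Fewer cells of a type and less RNA per cell cannot be told apart in whole tissue.

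Each library rested on 70.2 to 80.6 M reads, read from the steps between low values. Smooth muscle markers were high: Acta2, the contractile actin, was at 869 to 6933 FPKM over the 10 libraries. Brown fat, white fat and skeletal muscle markers were present as well. Of the 10 libraries 3, all of AngII+BAI, stood apart, and their median rank correlation with the other 9 libraries was 0.809 (AngII+BAI 1), 0.817 (AngII+BAI 3) and 0.834 (AngII+BAI 5), against 0.878 to 0.899 for the other 7. AngII+BAI 1 had 32083 transcripts of the shared list above 0, against 36328 to 37540 in the others. Results that rest on these libraries are given with and without them. No 2 libraries were near duplicates (highest rank correlation 0.909).

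Few single genes were called between the 2 treatments, which does not show that the other genes were alike. Phf5a, which encodes a subunit of the SF3b splicing complex, was 7.01-fold higher in AngII+BAI. Ankrd46, an ankyrin repeat gene, was 5.44-fold higher in AngII+VAL. These were the only calls, 1 in each direction (0.00836% of the genes tested each, 0.0167% in all). With an unadjusted p under 0.05 stood 1193 genes (9.97%), 837 higher and 356 lower in AngII+BAI. The ranges of the groups did not overlap for 253 genes higher in AngII+BAI (2.12%) and for 69 lower (0.577%). Of all genes tested, 61.2% lay higher in AngII+BAI, with a median difference of 0.10 (quartiles -0.14 and 0.32). That median was 0.02 after quantile normalization, so a shift of this size moved with the scaling. Gapdh, Col1a2, Cnn1, Cd68, Spp1, Cebpb, Rps29, Rpl30, mt-Cytb, Actc1, Csrp3, Jsrp1, Unc45b and Miox, named below, were chosen after their values were seen.

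Phf5a (chromosome 15, 81864520 to 81871911 of GRCm38, minus strand) was at 10.7, 10.3, 16.2, 14.6 and 11.7 FPKM in AngII+BAI 1 to 5 and at 1.81, 2.26, 1.08, 0.613 and 3.29 FPKM in AngII+VAL 1 to 5. All AngII+BAI libraries lay above all AngII+VAL libraries, by 2.35 on the log2 scale (SE 0.27, limma adjusted p = 0.0204). AngII spanned 3.45 to 13.3 FPKM and Control 0.732 to 11.9 FPKM, so AngII+VAL, with a maximum of 3.29 FPKM, lay below all of AngII and overlapped Control. The call was lost on leaving out AngII+BAI 1, AngII+BAI 4, AngII+VAL 1, AngII+VAL 2 or AngII+VAL 3 (limma adjusted p = 0.0579 to 0.0956), while the difference stayed between 2.26 and 2.42. It was also lost without both AngII+BAI 3 and 5 (limma adjusted p = 0.0565), without AngII+BAI 1, 3 and 5 (0.131), with a pseudocount of 0.1 (0.105) and with neuron and muscle marker levels as terms (0.0692).

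Ankrd46 (chromosome 15, 36477668 to 36496820, minus strand) was at 3.78, 4.86, 3.26, 2.19 and 3.75 FPKM in AngII+BAI and at 16.4, 20.1, 18.6, 21.8 and 20.1 FPKM in AngII+VAL. The groups were far apart, with a difference of -2.18 (SE 0.18, limma adjusted p = 0.00151). The coding transcript carried this: it was at 1.04 to 2.49 FPKM in AngII+BAI and at 15.1 to 20.7 FPKM in AngII+VAL. In AngII the same transcript took 2 states, at 25.7, 19.1 and 32.3 FPKM in 3 libraries and at 0.97 and 1.92 FPKM in the other 2. Control held this transcript at 21.6, 13.2, 20.5, 17.8 and 17.2 FPKM, which overlaps AngII+VAL and lies above every AngII+BAI library. The retained-intron transcript of the gene was at 0.771 to 3.43 FPKM in AngII+BAI and at 0.992 to 1.35 FPKM in AngII+VAL.

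Such on-and-off values were not particular to Ankrd46. The coding transcript of Col1a2, the partner chain of Col1a1 in type I collagen, was at 0.00536, 14.7, 0.0321, 28.3 and 795 FPKM in AngII+BAI and at 0.0346 to 0.876 FPKM in AngII+VAL, where Col1a1 was at 191 to 465 FPKM. For Gapdh, a glycolytic gene, only 2 retained-intron transcripts and no coding one entered the sum, so its values of 0.231 to 73.3 FPKM over the 10 libraries are not the level of the coding RNA. The authors' tables also hold transcripts assembled from the reads, which carry no gene name and do not enter the gene sums. How far reads moved between them and the annotated transcripts of Phf5a or Ankrd46 was not tested.

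**Figure D1:**
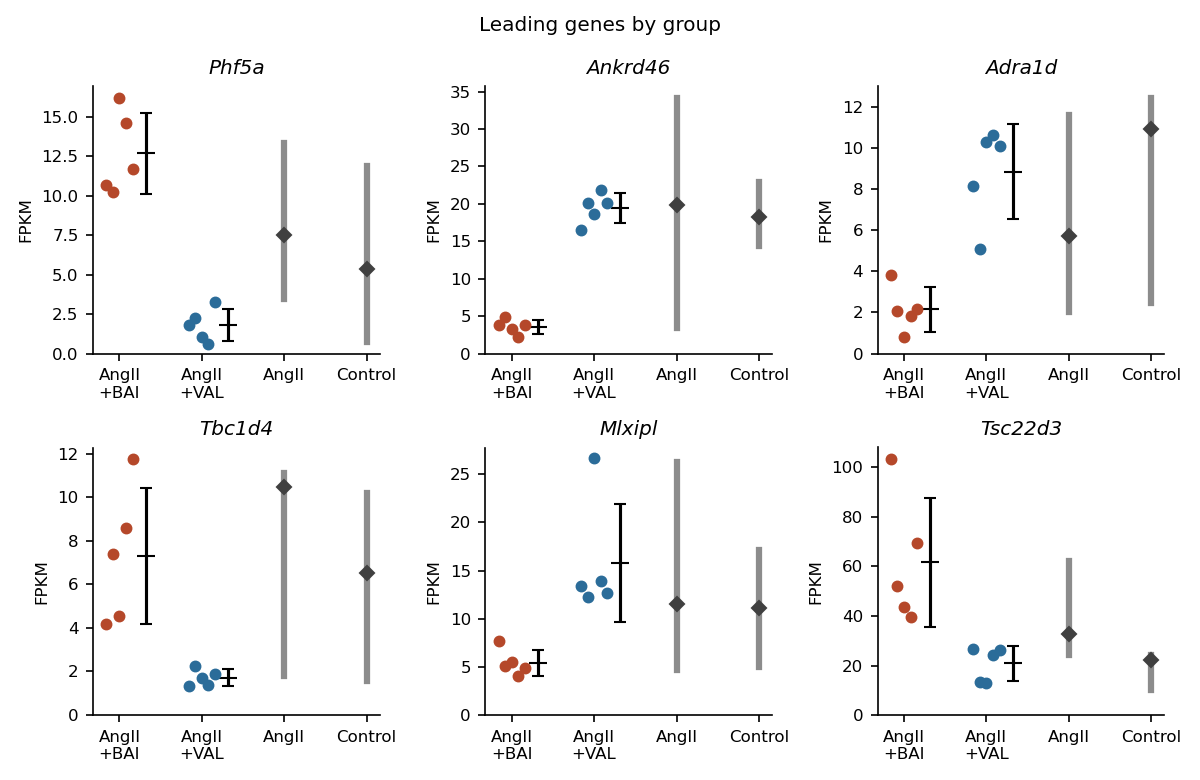
FPKM of 6 genes in the libraries of AngII+BAI (red) and AngII+VAL (blue), 1 point per library, with mean and SD in black; grey bars span the 5 AngII and the 5 Control libraries, with the median as a diamond. Phf5a at 10.3 to 16.2 in AngII+BAI lies above 0.613 to 3.29 in AngII+VAL, and Ankrd46 is the reverse.

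Genes that came next did not pass the threshold, although their groups did not overlap. Tbc1d4, a Rab GTPase activator in insulin-driven glucose uptake, was at 4.2, 7.41, 4.55, 8.59 and 11.8 FPKM in AngII+BAI and at 1.31, 2.25, 1.7, 1.36 and 1.9 FPKM in AngII+VAL (difference 1.55, SE 0.26, limma adjusted p = 0.271). The coding transcript of Tbc1d4 did not separate the groups, at 0.114 FPKM in AngII+BAI 3 and up to 0.67 FPKM in AngII+VAL. Rps6kb1, the S6 kinase below mTORC1, was at 8.72, 2.89, 11.7, 9.4 and 10.6 FPKM against 1.24, 1.44, 1.56, 2.35 and 1.75 FPKM. Without AngII+BAI 2, its lowest AngII+BAI library, Rps6kb1 passed (difference 2.06, limma adjusted p = 0.00443). Control held Rps6kb1 at 8.06 to 10.4 FPKM, above every AngII+VAL library, and AngII spanned 1.89 to 10.3 FPKM, which overlaps AngII+VAL. Sash1, a signalling scaffold, was at 8.89, 7.96, 4.81, 5.76 and 5.06 FPKM against 2.51, 3.16, 2.36, 3.05 and 3.15 FPKM. Zfp638, a zinc-finger gene, was at 3.85 to 10.3 FPKM against 1.62 to 2.95 FPKM. A retained-intron transcript of Zfp638 had separate groups, at 1.46 to 5.8 FPKM against 0.513 to 1.27 FPKM, while each of its coding transcripts overlapped. The remaining higher genes of this kind were the processed pseudogenes Gm10029, Rpl31-ps9, Gm9396 and Rpl17-ps5, whose reads cannot be told from those of their parent genes.

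On the valsartan side the gene nearest to the vessel's function was Adra1d, the alpha-1D adrenoceptor through which noradrenaline contracts the aorta. It was at 3.84, 2.08, 0.822, 1.84 and 2.16 FPKM in AngII+BAI and at 8.16, 5.07, 10.3, 10.6 and 10.1 FPKM in AngII+VAL, a 4.12-fold difference in means. The 2 ranges did not meet, with a difference of -1.68 (SE 0.28, 95% interval -2.29 to -1.06, limma adjusted p = 0.271). AngII spanned 2.02 to 11.6 FPKM and Control 2.48 to 12.4 FPKM, so both reached from the AngII+BAI level to the AngII+VAL level. Adra1d has 1 listed transcript. Without AngII+BAI 1, 3 and 5 the difference was -1.70.

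Mlxipl, the carbohydrate-responsive transcription factor ChREBP, was at 7.66, 5.07, 5.5, 4.06 and 4.88 FPKM in AngII+BAI and at 13.4, 12.3, 26.6, 13.9 and 12.7 FPKM in AngII+VAL. AngII+VAL 3 was far above the rest, and the other 4 still cleared all of AngII+BAI. Transcripts subject to nonsense-mediated decay carried this gap, while the coding transcripts of Mlxipl overlapped (0 to 1.66 FPKM against 0.585 to 0.784 FPKM, and 0.462 to 3.47 FPKM against 0.954 to 3.68 FPKM). Asb2, a ubiquitin ligase subunit of muscle, was at 9.46, 14, 14.4, 14.7 and 5.9 FPKM against 33.7, 27.7, 19.1, 30 and 30 FPKM. The other 6 genes named on this side were Msra, a methionine sulfoxide reductase, Rbm39, a splicing factor, the galactosyltransferase B3galt2, the polycomb gene Cbx7, Sumf2 and A530016L24Rik. Their differences ran from -1.47 (Cbx7) to -0.79 (Sumf2), with limma adjusted p = 0.33 to 0.341.

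A fit over all 6 groups of the series called 71 genes higher and 8 lower, both calls above included. In it all 30 libraries share 1 estimate of the spread, borrowed from groups whose spreads may differ. Among the 10 libraries compared, those that stood apart were all in AngII+BAI. A shared estimate can therefore understate the spread of that group, and these calls carry that limit. It called Tsc22d3 (limma adjusted p = 0.0386), Sash1 (0.0288), Rps29 (0.0302), Nfe2l2 (0.0302) and Zfp638 (0.0331) higher, and Asb2 (0.0351) and Cbx7 (0.0427) lower. It tested 13223 genes, a different set from the 11962 genes tested above. Of the 79 called genes, 39 were pseudogenes by annotation and 38 were protein-coding. Rpl or Rps names were held by 18 of the 79, pseudogenes included, and 6 of these 18 were protein-coding. The shares of pseudogenes and of such names among all genes tested are not given here, so an excess among the calls was not tested.

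Genes of the renin-angiotensin system showed no called difference. Of 20 members 11 were tested, 8 higher and 3 lower in AngII+BAI, with a median of 0.21. Agtr1a, which encodes the receptor that valsartan blocks, was at 2.35, 3.05, 5.89, 2.7 and 5.97 FPKM in AngII+BAI and at 3.08, 2.94, 4, 8.15 and 2.67 FPKM in AngII+VAL. These ranges overlapped almost fully (difference -0.03, 95% interval -0.73 to 0.66), an interval that holds changes of either sign. Ace, the enzyme that makes angiotensin II, was at 52.4, 91.3, 22.7, 86.1 and 81.8 FPKM against 63.1, 79.2, 78.1, 121 and 118 FPKM (-0.56, 95% interval -1.39 to 0.27). AngII+BAI 3 was the low library there. Atp6ap2, the prorenin receptor, was the 1 member with an unadjusted p under 0.05, at 31.8 to 51.7 FPKM against 21.5 to 36 FPKM (difference 0.45, limma adjusted p = 0.478). The chymase Cma1, a tissue source of angiotensin II, was at 8.42 to 17.5 FPKM against 7.97 to 12.1 FPKM. Agt, Ren1 and Agtr1b stayed under the filter, and Agtr2, Mas1, Lnpep and Ctsg were not analysed here.

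Downstream of the AT1 receptor, 11 of 21 tested genes lay higher and 10 lower, with a median of 0.0014. Rgs5, a pericyte and smooth muscle gene that turns off Gq signals, was the member with the smallest p. It was at 226, 384, 150, 255 and 205 FPKM in AngII+BAI and at 306, 388, 465, 387 and 606 FPKM in AngII+VAL. Only AngII+BAI 2 reached into the AngII+VAL range (difference -0.85, SE 0.28, limma adjusted p = 0.425). AngII held Rgs5 at 283 to 1109 FPKM, so 4 of the 5 AngII+BAI libraries lay below all of AngII. Gna13, a G protein alpha subunit, was at 15.7 to 24.2 FPKM against 14.8 to 17.4 FPKM.

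In the nitric oxide and cGMP pathway, which relaxes smooth muscle, 4 of 14 tested genes lay higher and 10 lower (median -0.24). Nos3, the endothelial nitric oxide synthase, was at 2.02, 1.51, 10.1, 2.55 and 8.55 FPKM in AngII+BAI and at 1.49, 1.49, 1.42, 2.33 and 1.48 FPKM in AngII+VAL. The 2 high values were AngII+BAI 3 and 5, and without them the difference fell from 0.90 to 0.19. Gucy1a1 and Gucy1b1, the subunits of the nitric oxide receptor, were at 8.5 to 21.9 and 11.1 to 29.3 FPKM against 20.3 to 31.5 and 21.5 to 35.5 FPKM. Mrvi1, the IP3 receptor partner of cGMP-dependent kinase, was at 13.8, 3.45, 2.13, 2.04 and 5.01 FPKM against 6.47, 5.99, 16.2, 29.4 and 14.2 FPKM. All but AngII+BAI 1 lay below AngII+VAL (difference -1.36, 95% interval -2.50 to -0.22, limma adjusted p = 0.454). Prkg1, the cGMP-dependent kinase itself, was at 1.18, 8.6, 3.88, 5.38 and 4.08 FPKM against 4.7, 5.69, 5.69, 7.69 and 7.33 FPKM, with overlap. The list median was -0.05 without AngII+BAI 3 and 5.

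Contractile genes differed by library more than by group. Of 27 tested genes of smooth muscle contraction, 2 lay higher and 25 lower in AngII+BAI, with a median of -0.58 and no call. The mean log2 level of the list was 7.26, 7.02, 5.43, 6.87 and 5.85 in AngII+BAI 1 to 5 and 6.88, 7.15, 6.70, 7.37 and 7.43 in AngII+VAL 1 to 5. AngII+BAI 3 and 5 were the low libraries, and the other 3 lay within the AngII+VAL range. Without AngII+BAI 3 and 5, 15 genes lay higher and 12 lower, with a median of 0.10.

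Single contractile genes repeated this. Acta2 was at 6933, 4545, 869, 4308 and 1603 FPKM in AngII+BAI and at 3515, 4151, 3754, 5243 and 5717 FPKM in AngII+VAL. Myh11, the smooth muscle myosin heavy chain, was at 435, 572, 69, 437 and 155 FPKM against 433, 442, 484, 595 and 630 FPKM. In both, AngII+BAI 3 was the lowest library and AngII+BAI 5 the next. Cnn1, calponin, was at 47.3 FPKM and 75.4 FPKM in these 2 and at 262 to 647 FPKM in the other 8. Macrophage markers moved the other way in the same libraries. Their mean log2 level was 6.45 and 5.97 in AngII+BAI 3 and 5, against 4.34 to 4.69 in the other AngII+BAI libraries and 3.88 to 5.55 in AngII+VAL. The part of a changed mix of cells in the contractile values was not tested.

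Among calcium, potassium and chloride channel genes of smooth muscle, no member was called. Ano1, the calcium-activated chloride channel, was at 0.361, 2.98, 1.25, 2.42 and 1.16 FPKM against 13.1, 3.42, 2.34, 14.1 and 3.41 FPKM. Kcnj8 and Abcc9 encode the pore and the sulfonylurea subunit of the vascular KATP channel and went opposite ways. Kcnj8 was at 4.05 to 12.7 FPKM against 11.4 to 15 FPKM (difference -0.62). Abcc9 was at 19, 24.1, 10.3, 21 and 20.6 FPKM against 1.53, 14.3, 0.79, 1.37 and 23.8 FPKM, with AngII+VAL in 2 states. In all, 5 of 20 tested channel genes lay higher and 15 lower (median -0.55), the same counts as without AngII+BAI 3 and 5 (median -0.31). Without AngII+BAI 1, 3 and 5 the counts were 10 and 9 (median 0.06).

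**Figure D2:**
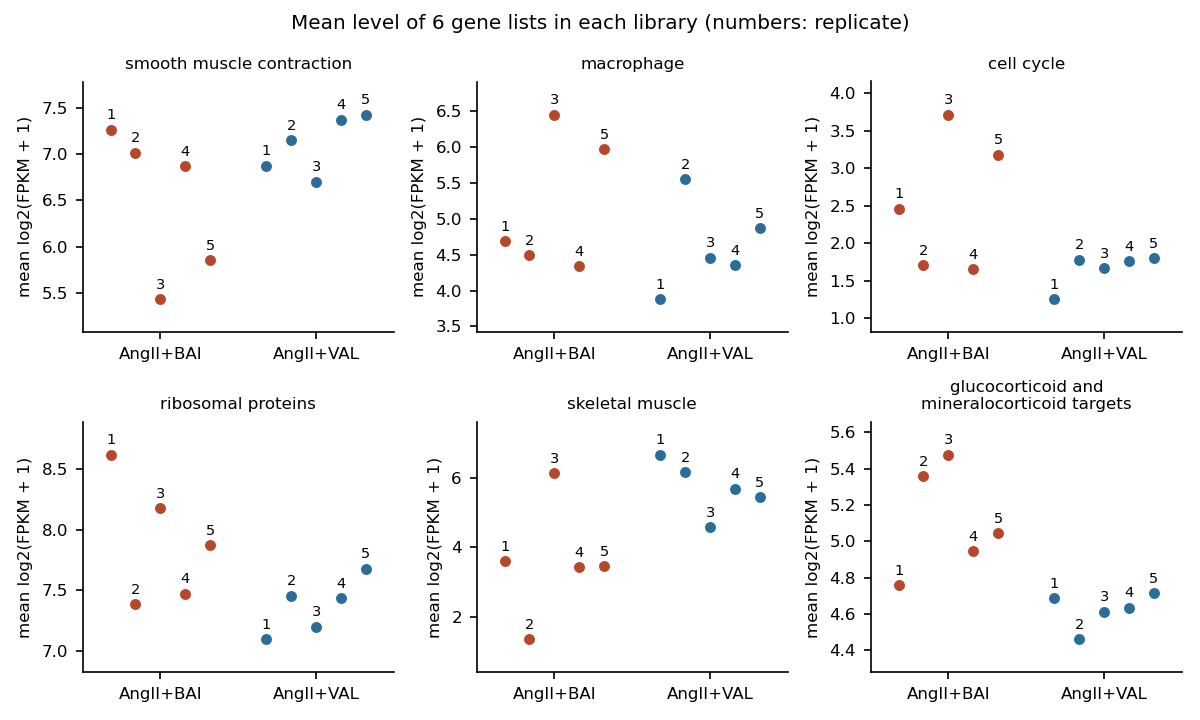
Mean log2(FPKM + 1) of the tested genes of 6 lists in each library (points, numbered by replicate), AngII+BAI in red and AngII+VAL in blue; the axes do not start at 0. AngII+BAI 3 and 5 are the low libraries for contraction and high for macrophage genes, and only the glucocorticoid list has groups that do not overlap.

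Corticosteroid targets were the only one of the 36 gene lists whose mean level separated the groups, a description with no test. Of single genes tested, 2.69% had groups that did not overlap. The glucocorticoid and mineralocorticoid receptors bind steroid hormones and, as transcription factors, switch on genes such as Fkbp5, Tsc22d3, Sgk1, Per1 and the metallothioneins. Of 16 tested members, 13 lay higher and 3 lower in AngII+BAI, with a median of 0.48. The mean log2 level was 4.76, 5.36, 5.48, 4.95 and 5.04 in AngII+BAI and 4.69, 4.46, 4.61, 4.63 and 4.71 in AngII+VAL. The groups parted narrowly, with AngII+BAI 1 at 4.76 and AngII+VAL 5 at 4.71. That gap is smaller than the median difference of all genes tested (0.10), which moved with the scaling. The counts were the same without AngII+BAI 3 and 5 (median 0.37), and 12 and 4 without AngII+BAI 1, 3 and 5 (median 0.66). They were 10 and 6 after quantile normalization (median 0.39) and 11 and 5 with a pseudocount of 0.1 (median 0.33). The median was 0.24 without AngII+BAI 2. No member was called by the 2-group fit.

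Tsc22d3 (chromosome X, 140539528 to 140600659, minus strand) encodes the glucocorticoid-induced leucine zipper, GILZ. It was at 103, 52.1, 43.8, 39.6 and 69.5 FPKM in AngII+BAI and at 26.8, 13.5, 13.1, 24.4 and 26.4 FPKM in AngII+VAL, 2.96-fold apart in means. The gene sums did not overlap (difference 1.5, SE 0.31, 95% interval 0.82 to 2.18, limma adjusted p = 0.33). The most abundant coding transcript of Tsc22d3 did overlap, at 99.6, 48.2, 25.6, 21.6 and 66.4 FPKM against 23.3, 12.2, 10.2, 20.2 and 22.8 FPKM. AngII+BAI 4 lay within the AngII+VAL range there, and a retained-intron transcript added 12.6 and 14.7 FPKM to the sums of AngII+BAI 3 and 4. AngII gene sums overlapped both groups at 24.1 to 62.2 FPKM, and Control, at 10 to 24.4 FPKM, lay within or below the AngII+VAL range.

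Fkbp5, the co-chaperone that dampens the glucocorticoid receptor, was at 53, 46.6, 38.8 and 50.1 FPKM in AngII+BAI 2 to 5 and was listed at 0 in AngII+BAI 1. AngII+VAL held it at 15.3, 16.1, 7.25, 21.2 and 19.2 FPKM, AngII at 14.1 to 27.8 FPKM and Control at 6.65 to 15.1 FPKM. The 4 libraries with a value lay above all 15 libraries of these other groups. With AngII+BAI 1 included the difference was 0.47 (SE 1.00, limma adjusted p = 0.887). Only 1 transcript of Fkbp5 was listed, and whether its reads in AngII+BAI 1 went to an assembled transcript was not tested.

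Sgk1, the salt-handling kinase induced by both receptors, was at 64, 74.7, 39.9, 43.9 and 42.5 FPKM against 45.1, 26.2, 7.42, 28.6 and 31.3 FPKM. Only AngII+VAL 1 reached into the AngII+BAI range (difference 1.06, SE 0.41, limma adjusted p = 0.454). Mt2, a metallothionein, was at 287, 277, 897, 127 and 227 FPKM against 82.4, 90.5, 192, 86.3 and 57.9 FPKM. Mt1 was at 464, 300, 1137, 193 and 263 FPKM against 174, 196, 285, 178 and 155 FPKM, with AngII+BAI 3 highest for both. Errfi1, a feedback inhibitor of the EGF receptor, was at 48.6, 56, 19.1, 17.1 and 34.1 FPKM against 16.6, 13.4, 20, 14 and 16.5 FPKM, with AngII+BAI 3 and 4 at the AngII+VAL level. Cdkn1a, the cell cycle inhibitor p21, was at 51.2 to 107 FPKM against 38.7 to 68.3 FPKM. Per1, a clock gene, was at 3.49 to 9.45 FPKM against 2.33 to 5.07 FPKM.

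Of the 16 tested members only Tsc22d3 had separate groups. The ranges of Sgk1, Mt2, Mt1, Errfi1, Cdkn1a and Per1 overlapped, as did those of the members that follow. Klf9, a Kruppel-like factor, was at 11.4, 106, 32.1, 79.6 and 54.6 FPKM against 35.2, 33, 40.1, 54.6 and 67.8 FPKM. Zbtb16 (PLZF) was at 1.46, 34.4, 4.81, 18.7 and 14.7 FPKM against 11.7, 11.9, 1.58, 14.7 and 12.9 FPKM. For both, AngII+BAI 1 was the lowest library and AngII+BAI 2 the highest. Dusp1, a MAP kinase phosphatase, differed by 0.16 (95% interval -0.54 to 0.86). Nr3c1, the glucocorticoid receptor itself, was at 0.0808 to 11.9 FPKM against 0.316 to 15 FPKM. Hsd11b1, which regenerates active glucocorticoid in tissue, was at 19.4 to 63.3 FPKM against 37.7 to 57.9 FPKM. Outside this list, Nfil3, a clock repressor, had separate groups, at 8.24, 13.8, 17.8, 7.38 and 6.44 FPKM against 6.42, 3.13, 3.05, 4.75 and 3.01 FPKM (difference 1.16, SE 0.30, limma adjusted p = 0.342). Cebpb, a transcription factor of the acute response, was at 58.9, 64, 69, 87.5 and 9.26 FPKM against 13.8, 9.95, 13.3, 10.5 and 20.4 FPKM, and passed without AngII+BAI 5 (difference 2.31, limma adjusted p = 0.00751). AngII spanned 10.8 to 51.4 FPKM for Cebpb (median 35.6 FPKM), which overlaps both groups, and Control spanned 8.67 to 25.7 FPKM.

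**Figure D3:**
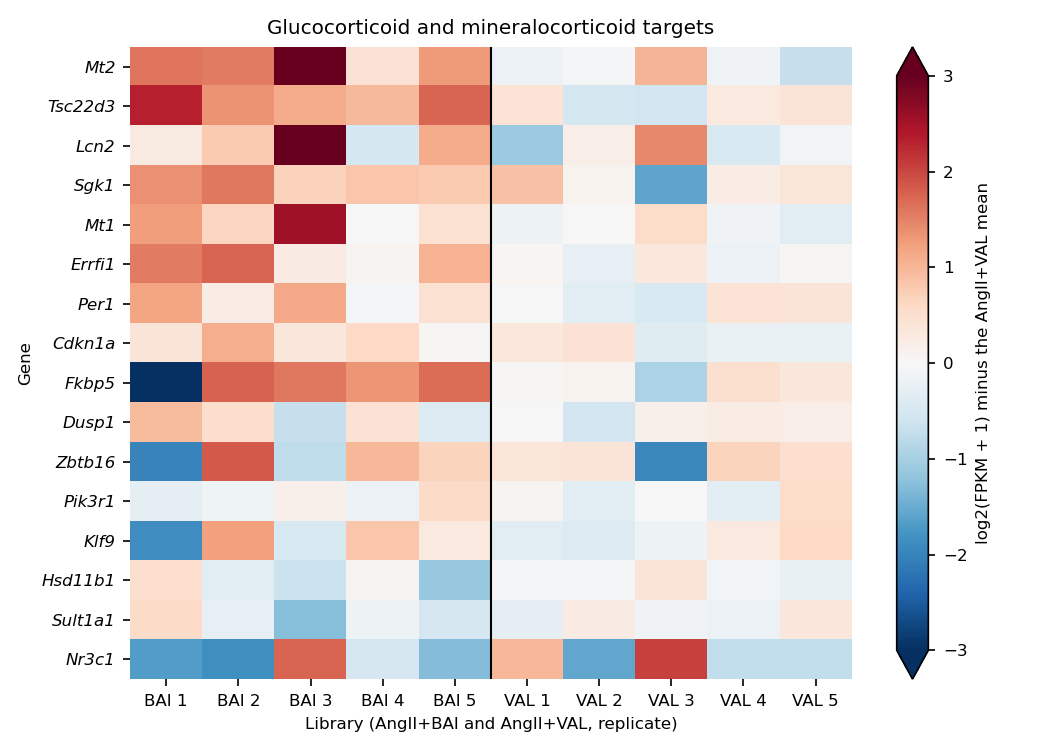
Level of the 16 tested corticosteroid targets in each library, as log2(FPKM + 1) minus the AngII+VAL mean of the gene (red higher, blue lower, colours saturate at 3), genes ordered by their difference. Tsc22d3, Sgk1 and Mt2 are red in all 5 AngII+BAI libraries, and Fkbp5 is red in 4 and saturated blue in AngII+BAI 1, where it is listed at 0.

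Promoters of these genes are shown since the receptors bind DNA at AGAACA half-sites and, as a pair, at AGAACA followed, after 3 bases of any kind, by its reverse complement TGTTCT. RefSeq (GRCm38.p6) held start-site windows for 14 of the 16 members, and 12 had one within 100 bases of the 5′ end of the member's most abundant listed transcript. The 250 bases before the start were searched on both strands, and each full site holds 2 half-sites. A half-site was found in 2 of the 12 windows (16.7%) and in 16.1% of all 32851 RefSeq windows. The full 15-letter motif was found in 1 of the 12, that of Sgk1, and in 3 of all windows (0.00913%). In Sgk1 it begins 189 bases before the start. Tsc22d3, the only member with separate groups, was not among the 12. Its nearest window lay 519 bases away and held no half-site. Hsd11b1, at 21715 bases, was left out too, and Nr3c1 and Zbtb16 had no window. The 2 windows with a match and, for contrast, that of Fkbp5, which has none, are printed with half-sites in capitals. They are chr10:21993640-21993889 (plus strand), chr7:126676419-126676668 (minus) and chr17:28486150-28486399 (minus).
Sgk1: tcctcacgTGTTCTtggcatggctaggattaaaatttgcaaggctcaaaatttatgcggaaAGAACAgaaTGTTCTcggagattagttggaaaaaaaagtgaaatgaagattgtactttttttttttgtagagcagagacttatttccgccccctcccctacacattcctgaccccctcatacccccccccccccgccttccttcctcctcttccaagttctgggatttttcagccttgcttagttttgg
Sult1a1: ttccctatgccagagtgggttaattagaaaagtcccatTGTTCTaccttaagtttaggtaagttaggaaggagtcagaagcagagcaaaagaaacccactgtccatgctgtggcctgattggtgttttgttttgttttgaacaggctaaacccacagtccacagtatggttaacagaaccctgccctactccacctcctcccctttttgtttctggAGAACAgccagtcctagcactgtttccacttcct
Fkbp5: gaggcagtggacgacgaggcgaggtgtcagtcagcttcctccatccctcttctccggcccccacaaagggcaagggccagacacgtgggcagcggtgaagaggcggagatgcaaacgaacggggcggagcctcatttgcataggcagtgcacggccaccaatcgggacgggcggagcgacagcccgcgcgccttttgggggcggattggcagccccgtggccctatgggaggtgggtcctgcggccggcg
Sult1a1, a sulfotransferase with 2 separate half-sites, was at 22.6 to 84.1 FPKM in AngII+BAI and 45.4 to 71.1 FPKM in AngII+VAL, so its groups overlapped while those of Sgk1 nearly parted. The windows cover no distant site, and a match is a description of letters.

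Immediate early genes, which respond within minutes to stimuli and to handling, also lay higher in AngII+BAI. Of 22 tested, 19 were higher and 3 lower (median 0.36; without AngII+BAI 1, 3 and 5, 13 and 8 with a median of 0.10). Atf3, a stress-induced factor, was at 16.2, 14.1, 8.44, 9.14 and 6.88 FPKM against 3.33, 3.43, 5.69, 7.05 and 5.64 FPKM. Klf2, a flow-induced endothelial factor, was at 52, 37.3, 34.9, 34.8 and 32 FPKM against 17.3, 12.3, 17.6, 20.5 and 38.3 FPKM. In each, 1 library crossed into the other group's range: AngII+BAI 5 for Atf3 and AngII+VAL 5 for Klf2. Circadian clock genes were split, 8 higher and 9 lower (median -0.01). The hour of dissection is not in the labels, and its part in these values was not tested.

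Matrix genes lay higher in AngII+BAI, by an amount that turned on the libraries included. Of 40 tested collagen, elastic fibre and matrix genes, 29 were higher and 11 lower, with a median of 0.31. The median was 0.06 without AngII+BAI 5, 0.15 without AngII+BAI 3 and 5 (24 higher, 15 lower) and 0.16 without AngII+BAI 1, 3 and 5 (33 higher, 6 lower). Col1a1, the main chain of type I collagen, was at 302, 341, 403, 300 and 2976 FPKM against 191, 207, 266, 385 and 465 FPKM. Col3a1, of type III collagen, was at 627, 345, 778, 424 and 3691 FPKM against 216, 224, 347, 487 and 517 FPKM. AngII+BAI 5 was several times above every other library for both. Fn1, fibronectin, was at 135, 516, 39.8, 255 and 287 FPKM against 251, 338, 171, 392 and 698 FPKM, lowest in AngII+BAI 3 (difference -0.85, 95% interval -2.25 to 0.55). Eln, elastin, was at 401, 504, 212, 287 and 481 FPKM against 184, 274, 203, 735 and 689 FPKM, with full overlap (difference 0.04, 95% interval -0.96 to 1.03). Col18a1, of basement membranes, was at 34.3, 38.1, 17.8, 41.9 and 23.4 FPKM against 41.6, 48.5, 70.3, 56.5 and 112 FPKM, where only AngII+BAI 4 touched the AngII+VAL range (difference -1.03, SE 0.31, limma adjusted p = 0.409).

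Among proteases and their inhibitors, 18 of 24 lay higher (median 0.15). Timp1, a metalloprotease inhibitor, was at 111, 29.4, 362, 31.3 and 174 FPKM against 8.88, 20.7, 58.1, 29.9 and 25.3 FPKM, with AngII+BAI 1, 3 and 5 high. TGF-beta signalling was split at 13 higher and 10 lower (median 0.05). Tgfb1 was at 19.5 to 45.3 FPKM against 14 to 28.6 FPKM.

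For oxidant defence, the list of Nrf2 targets had 17 higher and 11 lower of 28 tested (median 0.09, near the 0.10 of all genes). Nfe2l2, the gene of Nrf2 itself, had separate groups, at 39.9, 44.8, 55.3, 38.8 and 48.7 FPKM in AngII+BAI and 29.7, 31.2, 33.1, 30.4 and 34.9 FPKM in AngII+VAL (difference 0.49, SE 0.14, limma adjusted p = 0.374). AngII was at 31.5 to 41.6 FPKM and Control at 30.2 to 38 FPKM. The enzyme genes did not follow as a group. Nqo1, a quinone reductase, was at 11.3, 7.86, 5.75, 7.21 and 6.76 FPKM against 6.47, 7.63, 5.88, 9.39 and 7.98 FPKM (difference 0.04, 95% interval -0.39 to 0.46). Gstm1, a glutathione transferase, was at 74.3 to 140 FPKM against 121 to 197 FPKM (difference -0.63). Hmox1, heme oxygenase 1, was at 15.7, 16.2, 1057, 14.2 and 368 FPKM against 8.79, 25.3, 29.6, 19.1 and 13.8 FPKM, so its mean difference of 1.90 rested on AngII+BAI 3 and 5 and was -0.20 without them. The 8 tested NADPH oxidase genes had a median of 0.47, and -0.39 without these 2 libraries.

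Immune genes lay higher in AngII+BAI by the same 2 libraries. Of 20 macrophage markers, 17 were higher and 3 lower (median 0.66), and 7 were higher and 12 lower without AngII+BAI 3 and 5 (median -0.10). Cd68, a lysosomal macrophage protein, was at 19.9, 13.5, 205, 10.5 and 83.1 FPKM against 9.55, 28.1, 14.6, 12.6 and 18.2 FPKM. Inflammatory cytokine and NF-kB target genes were 21 higher and 1 lower of 22 (median 0.43), and 11 and 9 (median 0.11) without these libraries. Ccl2, the main monocyte chemokine, was at 3.26, 0.736, 72.2, 0.328 and 9.07 FPKM against 0.958, 1.84, 2.09, 1.48 and 0.679 FPKM, high in AngII+BAI 3. Nfkbia, the NF-kB inhibitor that NF-kB and glucocorticoids both induce, was at 44.9, 58.1, 40.8, 24 and 35.3 FPKM against 24.7, 28, 26.1, 20.5 and 27.9 FPKM. Its difference of 0.61 was 0.63 without AngII+BAI 3 and 5 (limma adjusted p = 0.441 with all libraries). Spp1, osteopontin, was at 60.2, 25.9, 602, 19.4 and 290 FPKM against 2.85, 6.55, 7.99, 23.1 and 11.5 FPKM, where only AngII+BAI 4 lay within the AngII+VAL range (difference 3.24, SE 0.92, limma adjusted p = 0.374). Control held Spp1 at 0.667 to 29.9 FPKM. Ighm, the IgM heavy chain, was at 1324 FPKM in AngII+VAL 2 and at 1.36 to 410 FPKM in the other 9. Cd79b, of the B-cell receptor, was highest elsewhere, at 15.9 and 20.5 FPKM in AngII+BAI 3 and 5, 18.5 FPKM in AngII+VAL 5 and 3.74 FPKM in AngII+VAL 2.

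Interferon-response genes were 18 higher and 3 lower of 21 (median 0.22; -0.05 without AngII+BAI 3 and 5). Cell cycle genes were higher in all 16 tested members (median 0.75), through AngII+BAI 1, 3 and 5. Their mean log2 level was 2.46, 3.71 and 3.18 in these 3 libraries, 1.71 and 1.66 in AngII+BAI 2 and 4, and 1.26 to 1.80 in AngII+VAL. Top2a, a topoisomerase of dividing cells, was at 7.84, 2.26, 14.2, 2.07 and 5.37 FPKM against 0.578, 1.13, 1.49, 2.64 and 2.15 FPKM. Without AngII+BAI 1, 3 and 5, 5 members lay higher and 6 lower (median -0.0013).

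**Figure D4:**
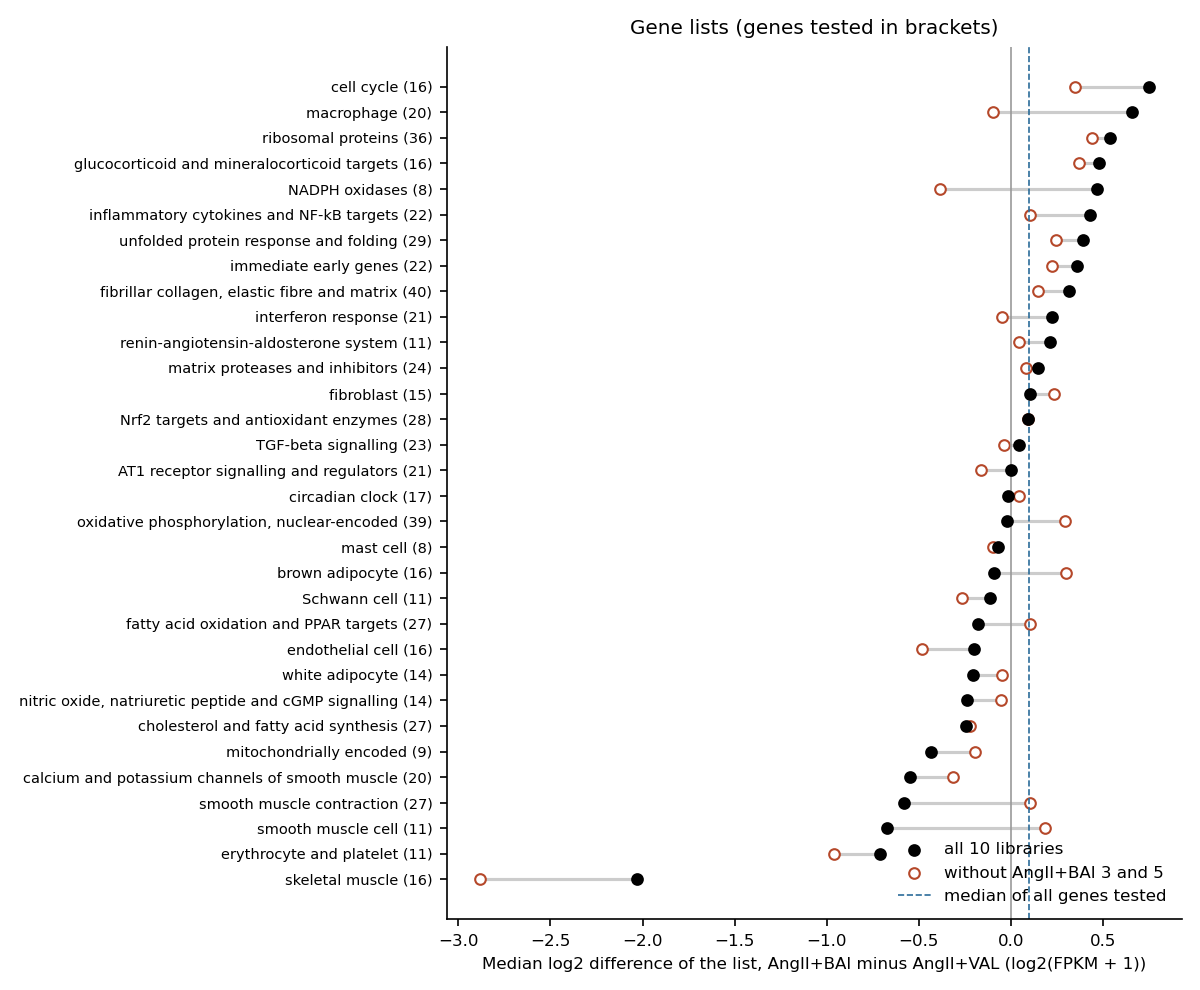
Median log2 difference, AngII+BAI minus AngII+VAL, of each list with at least 8 tested genes, with all 10 libraries (black) and without AngII+BAI 3 and 5 (open), beside the median of all genes tested (dashed, 0.10). Contraction moves from -0.58 to 0.10 and macrophage genes from 0.66 to -0.10, while the corticosteroid targets stay at 0.48 and 0.37.

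Ribosomal protein genes lay higher in AngII+BAI, 35 of 36 tested, with a median of 0.54. Rps29 was at 668, 276, 490, 334 and 269 FPKM against 167, 187, 159, 159 and 189 FPKM, and Rpl30 at 184, 119, 166, 110 and 132 FPKM against 71.1, 83.3, 61.1, 32 and 95.1 FPKM. Both are outside the list of 36 and had separate groups, while 0 of the 36 members did, against 2.69% of all genes tested. The most abundant Rpl30 transcript overlapped, at 38.6 FPKM in AngII+BAI 4 and 60.3 FPKM in AngII+VAL 1. The mean log2 level of the list was 8.62, 7.39, 8.18, 7.47 and 7.87 in AngII+BAI and 7.10 to 7.68 in AngII+VAL. AngII+BAI 2 and 4 lay within the AngII+VAL range, and without AngII+BAI 1, 3 and 5 the median was 0.06. Genes named Rpl or Rps took 4.45% ± 1.33 of the summed FPKM in AngII+BAI and 3.01% ± 0.558 in AngII+VAL (SD, n = 5 each; exact two-sided permutation p = 0.0714, adjusted 0.286 over 4 such values).

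Short genes as a whole moved in the same libraries. Of genes with transcripts under 1 kb, AngII+BAI 1 deviated from the AngII+VAL mean by a median of 0.90 and AngII+BAI 3 by 0.48, while the other AngII+BAI libraries deviated by 0.05 to 0.21. Over 4 kb it was -0.30 in AngII+BAI 1. Ribosomal protein genes are short. With the trend removed from each library, an alternative chosen after seeing the data, 35 of the 36 still lay higher and their median was 0.35.

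**Figure D5:**
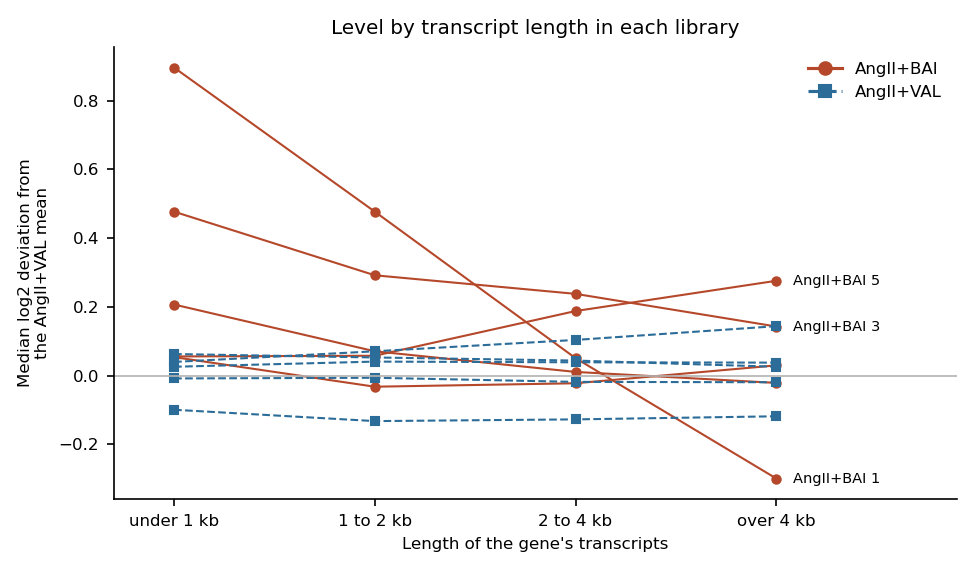
Median log2(FPKM + 1) deviation from the AngII+VAL mean over genes in 4 classes of transcript length (kb), 1 line per library, AngII+BAI in red and AngII+VAL in blue. AngII+BAI 1 runs from 0.90 for the shortest class to -0.30 for the longest, and the AngII+VAL libraries stay between -0.13 and 0.14.

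Protein folding genes were 25 higher and 4 lower of 29 tested (median 0.39; 0.24 without AngII+BAI 3 and 5). Dnajb1, an Hsp40 co-chaperone, had separate groups, at 14.2, 11.8, 16, 13.4 and 13.3 FPKM against 10.2, 9.16, 10.3, 10.2 and 11 FPKM (difference 0.39, SE 0.13, limma adjusted p = 0.427). AngII was at 11 to 17.8 FPKM. Canx, calnexin, was the other member with separate groups. Hspd1, the mitochondrial chaperonin, was at 125, 62.7, 68.5, 137 and 52.6 FPKM against 27, 67, 26.9, 53.3 and 40.6 FPKM.

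Lipid synthesis lay lower in AngII+BAI, with 9 genes higher and 18 lower of 27 tested (median -0.25; -0.22 without AngII+BAI 3 and 5). Srebf1, which switches on fatty acid synthesis, was at 24.1, 22.1, 35.5, 31.5 and 27.4 FPKM against 37.1, 33.7, 60.9, 39.2 and 45.5 FPKM. Acly, which supplies cytosolic acetyl-CoA, was at 373, 275, 180, 357 and 115 FPKM against 640, 284, 608, 485 and 516 FPKM. Their differences were -0.59 (SE 0.20) and -1.03 (SE 0.36), with limma adjusted p = 0.428 and 0.437. Of the AngII+BAI libraries, 1 lay within the AngII+VAL range for Srebf1 and 2 for Acly. White fat markers were 2 higher and 12 lower (median -0.21), and Adipoq, adiponectin, was at 285 to 416 FPKM against 309 to 497 FPKM (difference -0.10, 95% interval -0.54 to 0.34). Pparg, the master regulator of fat cells, was at 25.8 to 42.8 FPKM against 28.8 to 50.4 FPKM (difference -0.25, 95% interval -0.68 to 0.18).

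Fatty acid oxidation genes were 4 higher and 23 lower of 27 (median -0.18), but 16 and 11 without AngII+BAI 3 and 5 (median 0.10). Nuclear-encoded oxidative phosphorylation genes were split, 18 and 21 of 39 (median -0.02), and 37 and 2 without these libraries (median 0.29). Mitochondrially encoded genes took 16.7% ± 4.82 of the summed FPKM in AngII+BAI and 20.8% ± 4.08 in AngII+VAL (SD, n = 5 each; exact two-sided permutation p = 0.198, adjusted 0.317 over the same 4). These shares are of listed transcripts only: mt-Nd4l, mt-Atp6 and mt-Atp8 did not enter the sum. The values of mt-Cytb were on and off, at 2.32 FPKM in AngII+BAI 3 and at 11180 to 27880 FPKM in every other library. mt-Nd6, the 1 gene on the light strand, was at 542, 1190, 922, 773 and 783 FPKM against 1764, 1728, 1774, 1353 and 1094 FPKM, where only AngII+BAI 2 lay within the AngII+VAL range. Ucp1, the brown fat uncoupling protein, was at 2300, 2253, 812, 2194 and 627 FPKM against 1982, 1892, 1537, 919 and 785 FPKM, with overlapping ranges.

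Skeletal muscle markers had a median difference far from that of all genes. All 16 tested skeletal muscle markers lay lower in AngII+BAI, with a median of -2.03. Their mean log2 level was 3.60, 1.35, 6.12, 3.42 and 3.45 in AngII+BAI 1 to 5 and 6.65, 6.15, 4.58, 5.68 and 5.44 in AngII+VAL 1 to 5. All AngII+VAL libraries held muscle RNA, and of AngII+BAI only library 3 reached that range. Atp2a1, the calcium pump of fast muscle, was at 17.7, 2.24, 316, 26.2 and 32.6 FPKM against 482, 299, 75.7, 221 and 146 FPKM, with AngII at 0.559 to 8.38 FPKM and Control at 1.19 to 581 FPKM. Control thus reached above every AngII+VAL library. No marker was called with all libraries. Without AngII+BAI 3 and 5, the striated muscle genes Actc1, Csrp3, Jsrp1 and Unc45b were called lower (limma adjusted p = 0.024 to 0.0497). With neuron and muscle marker levels as terms in the fit, the difference of Asb2 was -0.996 (-1.24 without the terms), that of Tbc1d4 was 1.27 (1.55) and that of Adra1d was -2.12 (-1.68). In that fit 0 genes were called (limma smallest adjusted p = 0.0574, for Ankrd46), and 1715 had an unadjusted p under 0.05.

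Red cell markers were 1 higher and 10 lower of 11 (median -0.71), with Hba-a1, a haemoglobin chain, at 524 to 5713 FPKM against 2760 to 9022 FPKM. Kidney and adrenal markers were few, 5 of 15 tested. Kap, a proximal tubule gene, was at 0.162, 22.6, 0, 18.4 and 66.7 FPKM in AngII+BAI and at 92.1, 65.6, 70.5, 66.4 and 68.9 FPKM in AngII+VAL. The tubule genes Slc34a1 and Miox had separate groups, at 0 to 4.12 and 0 to 2.02 FPKM against 4.3 to 8.04 and 2.27 to 2.89 FPKM. AngII reached 29 FPKM for Kap and 2.15 FPKM for Slc34a1, so AngII+VAL stood above all AngII libraries too. Nphs1, a podocyte gene, went the other way, at 3.54 to 8.98 FPKM against 0 to 2.94 FPKM. Neuron markers, of which 5 of 23 were tested, were uneven: Stmn2 was at 19.4 and 19.5 FPKM in AngII+BAI 3 and 5, at 33.1 FPKM in AngII+VAL 4 and at 1.9 to 4.59 FPKM in the other 7. Endothelial markers were 5 higher and 11 lower (median -0.20), with Vwf at 15.8, 23.7, 14, 26.9 and 18.4 FPKM against 22.8, 28.1, 41, 35.9 and 35.8 FPKM.

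Transcripts listed for 1 group only could not enter the comparison. There were 3125 for AngII+BAI and 1997 for AngII+VAL. The authors' lists held a transcript when its mean in the group or in AngII reached 0.5 FPKM, as tested on the values, and none of these reached it in AngII. Many rested on 1 library, which held over 50% of the summed value in 2029 of the AngII+BAI transcripts and 966 of the AngII+VAL transcripts. The AngII+BAI transcripts were highest most often in AngII+BAI 1 (1000), AngII+BAI 3 (863) and AngII+BAI 5 (642). Only 28 and 71 were at or above 0.5 FPKM in every library of their group. The mitochondrial gene mt-Atp8 led the AngII+BAI side by its value in AngII+BAI 4 alone, 4835 FPKM, against 0.141 to 0.195 FPKM in the other 4. Tnni2, a fast muscle troponin, led the AngII+VAL side by 1 transcript at 155 FPKM in AngII+VAL 2 and 0.0536 to 0.325 FPKM in the others.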

How the data were processed

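The 10 libraries were made from abdominal aorta RNA after ribosomal RNA depletion with a NEBNext kit, per the labels' protocols; strand handling is not stated there. The authors deposited FPKM per transcript, 1 table per library, for annotated and newly assembled transcripts. The submitters' processing notes name mm10 and limma; the aligner, assembler and quantifier are not given in the sources used here. Tables of a group list transcripts with a mean of at least 0.5 FPKM in the group or in AngII, as tested on the values. FPKM were summed per gene (GENCODE M21, coordinates on GRCm38) over 28582 transcripts listed for both groups.

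Genes that reached 1 FPKM in 5 or more libraries were tested on log2(FPKM + 1) with limma 3.58.1 (R 4.3.3; trend and robust variances, 8 residual degrees of freedom) and Benjamini-Hochberg adjustment over 11962 genes. Python 3.11.15 with numpy 2.4.6, pandas 2.3.3, scipy 1.17.1 and matplotlib 3.10.9 did the rest. The steps between low FPKM values gave the depth (70.2 to 80.6 M reads); counting intervals were not used. On simulated data for this comparison over 11962 genes, 35% of 100 genes changed by a log2 of 1 and 73% of 100 changed by a log2 of 2 were recovered, with 5 false calls.

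Named were genes past the threshold, then per direction those with the smallest p, separate ranges and 1 group's mean at 5 FPKM or more, up to 10; a fixed set of angiotensin, vessel and fat genes; up to 3 members per list by p; and up to 5 transcripts per group listed for 1 group only. Further members of the corticosteroid, renin-angiotensin, nitric oxide and kidney lists were added after values were seen. Members and lists were chosen with earlier results of these data known. Alternatives covered the pseudocount, filter, scaling, transcripts, spread, fits over all 6 groups, marker levels as terms and leaving out libraries. Promoter sequences are from RefSeq (GRCm38.p6). Some genes are not reported here.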

Additional observations from a re-analysis of the deposited data

Results flagged for a closer look

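In 118 sets of 5 values, 10 had 1 library far from the other 4 by Dixon's criterion; chance marks about 1 in 20. AngII+BAI 1 had few transcripts of the shared list above 0 (32083), Fkbp5 listed at 0 FPKM and Rbm39 low at 3.42 FPKM. AngII+BAI 2 was low for Rps6kb1 at 2.89 FPKM. AngII+BAI 3 was low for Gucy1a1 at 8.5 FPKM and for Abcc9 at 10.3 FPKM. AngII+BAI 5 was high for Col1a1 at 2976 FPKM. AngII+VAL 3 was high for Mlxipl at 26.6 FPKM and low for Zbtb16 at 1.58 FPKM. AngII+VAL 4 was high for Nos3 at 2.33 FPKM. All 10 were kept in the comparison.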

How the results depend on the processing

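The count of genes higher in AngII+BAI (1) was 0 with a pseudocount of 0.1 or with neuron and muscle levels as terms, 2 with array weights, 71 in the fit over all 6 groups, 2 without AngII+BAI 3 and 5 and 5 without AngII+BAI 1, 3 and 5. It ranged from 0 to 3 on leaving out 1 library: 0 without AngII+BAI 1 or 4 or AngII+VAL 1, 2 or 3, 2 without AngII+VAL 4, and 3 without AngII+BAI 2 or 5. The count of lower genes (1) was 0 with the marker terms, 8 over all 6 groups, 11 without AngII+BAI 3 and 5 and 8 without AngII+BAI 1, 3 and 5; it ranged from 1 to 4, with 4 without AngII+BAI 3 or 5. Of 191 genes named and tested, none turned direction as a call; 58 uncalled genes changed sign in at least 1 setting. List medians moved by more than the pooled SD of the list's mean level between libraries of a group, without AngII+BAI 3 and 5, for nitric oxide (-0.0515), contraction (0.10) and channel genes (-0.31). Without AngII+BAI 1, 3 and 5, chosen after seeing the data, those past this SD were nitric oxide (0.0734), channel (0.0609), fatty acid oxidation (0.19), cell cycle (-0.0013), ribosomal (0.0622), folding (0.16), brown fat (0.39) and skeletal muscle genes (-3.57). Lists of wider spread shifted within their SD: macrophage (0.66 to -0.10 without AngII+BAI 3 and 5, -0.14 without AngII+BAI 1, 3 and 5), lymphocyte (0.15 to -1.14 and -1.37), smooth muscle markers (-0.67 to 0.18 and 0.09), NADPH oxidases (0.47 to -0.39 and -0.14) and inflammatory genes (0.43 to 0.11 and -0.0852). The kidney list moved to -2.50 with a pseudocount of 0.1, and the corticosteroid list ranged from 0.24 (without AngII+BAI 2) to 0.60 on leaving out 1 library. Of the 36 list medians, 12 changed sign without AngII+BAI 3 and 5 and 18 without AngII+BAI 1, 3 and 5; the cause was not tested. No paired analysis was possible because the labels give no replicate numbers shared between groups. With 5 libraries per group, most changes of a log2 of 1 were missed in simulated data (35% recovered). Those data had no library-wide shifts, so the share in the real data can differ. Depth was over 70 M reads in every library.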

Other observations

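Genes that passed the threshold only on leaving out libraries were chosen after their values were seen. Stk24, a Ste20-like kinase, was at 10.1, 17.9, 25.8, 16.7 and 1.19 FPKM in AngII+BAI and at 0.74, 1.66, 1.89, 1.51 and 2.39 FPKM in AngII+VAL. AngII was at 6.88 to 17.4 FPKM; AngII+BAI 2 and 3 lay above it, AngII+BAI 1 and 4 within it, and AngII+BAI 5 within the AngII+VAL range. Cul2, the scaffold of the VHL ubiquitin ligase, was at 1.89, 2.5, 13.7, 2.42 and 12.7 FPKM against 7.7, 8.49, 7.88, 9.17 and 9.82 FPKM. For Cul2 the high sums in AngII+BAI 3 and 5 came from a transcript subject to nonsense-mediated decay (9.11 and 10.2 FPKM). Its most abundant coding transcript was at 0.749 to 1.82 FPKM in AngII+BAI and at 6.91, 5.48, 1.49, 7.96 and 9.63 FPKM in AngII+VAL, where only AngII+VAL 3 overlapped. Hdc, histidine decarboxylase of mast cells, was at 1.69, 3.81, 5.88, 1.86 and 2.47 FPKM against 1.29, 1.27, 2.17, 1.4 and 1.35 FPKM (difference 0.65, SE 0.27, limma adjusted p = 0.47). AngII was at 0.703 to 1.62 FPKM and Control at 0.885 to 1.56 FPKM for Hdc, so all 5 AngII+BAI libraries lay above both. Of the 8 tested mast cell markers 3 lay higher and 5 lower in AngII+BAI (median -0.07), with Kit at -0.43 and Tpsb2 at -0.69.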
